A study of Mus musculus with 4 samples.

Results

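The genes described here are 10 germ cell genes that are kept silent in somatic cells by methylation of their promoters: Ddx4, Dazl, Tex19.1, Tex101, Slc25a31, Stk31, Fkbp6, Dpep3, Zfp42 and Asz1. They were taken by symbol from a table of 24388 gene symbols, and all 10 were found there. Expression was measured by poly(A) RNA sequencing in spermatocyte suspensions from testes of C57BL/6 mice, with 2 libraries of an Np95 knockout and 2 control libraries. Np95 is the protein of the gene Uhrf1, and the column headers name the knockout Np95cKO, without naming a Cre driver. Every library carries the same age label, 21 dpc, an abbreviation that the labels leave unexplained. The suspensions were made from tubules by accutase digestion and a 95 µm mesh, with no sorting described, so they can hold somatic cells of the testis. The labels do not say whether the replicates come from separate animals, and the p-values below reflect only how far the 4 libraries differ, a spread that may be technical. From its title, the study asked how maintenance methylation before meiosis bears on meiotic prophase.

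Methylation of a CpG-rich promoter holds a gene silent through cell division because Uhrf1 recognises newly copied, half-methylated DNA and recruits the methyltransferase Dnmt1 to complete it. In the mouse embryo the promoters of a set of germline genes gain methylation in the somatic lineages, while germ cells erase that methylation during their early development and switch the genes on. Several of these genes act in germ granules and in the silencing of transposons, and others make proteins of the germ cell surface. In spermatocytes the genes are therefore normally active, and the libraries hold RNA levels only, with no measurement of methylation.

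The promoters of the 10 genes were rich in CpG sites, the sequence that carries this methylation. RefSeq (GRCm38.p6) listed 12 promoters for the 10 genes, since Stk31 and Fkbp6 each have 2 starts. In the window from 250 bases before to 50 bases after the start they held 11 to 38 CpG sites with a median of 21.5, against a median of 7 over all 32851 promoters. Their median GC content was 60.8%, against 52.7% over all promoters. Ddx4 had the most CpG sites, 38, and Zfp42 and Dpep3 had the fewest, 11 and 12. Of all promoters 41.4% held at least 11 CpG sites, which places all 12 promoters in the CpG-richer part. The next lines show, for the 250 bases before the start, the gene with the largest rise (Dazl), a gene with E-boxes that also rose (Fkbp6, the upstream of its 2 starts), the gene with the most CpG sites (Ddx4) and the gene with the largest fall (Dpep3). Capitals mark each CpG, and all 4 genes lie on the minus strand of GRCm38.p6.
Dazl, chr17:50293621-50293870: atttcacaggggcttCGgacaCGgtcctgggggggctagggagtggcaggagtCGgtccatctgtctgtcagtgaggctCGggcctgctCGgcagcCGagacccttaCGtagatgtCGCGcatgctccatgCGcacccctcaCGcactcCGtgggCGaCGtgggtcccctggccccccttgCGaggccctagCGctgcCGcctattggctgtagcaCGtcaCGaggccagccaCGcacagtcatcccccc
Fkbp6, chr5:135350045-135350294: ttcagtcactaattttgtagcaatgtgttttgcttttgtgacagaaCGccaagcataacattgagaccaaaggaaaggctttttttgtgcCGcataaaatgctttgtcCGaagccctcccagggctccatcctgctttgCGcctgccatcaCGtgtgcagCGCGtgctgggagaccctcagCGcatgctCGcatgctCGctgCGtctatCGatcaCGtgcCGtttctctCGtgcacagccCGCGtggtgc
Ddx4, chr13:112652311-112652560: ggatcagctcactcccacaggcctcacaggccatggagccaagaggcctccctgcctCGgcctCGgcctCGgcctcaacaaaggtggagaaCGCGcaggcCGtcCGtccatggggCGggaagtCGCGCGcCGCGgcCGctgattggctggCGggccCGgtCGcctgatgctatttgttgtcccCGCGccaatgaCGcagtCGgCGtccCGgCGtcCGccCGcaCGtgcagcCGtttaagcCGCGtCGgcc
Dpep3, chr8:105979420-105979669: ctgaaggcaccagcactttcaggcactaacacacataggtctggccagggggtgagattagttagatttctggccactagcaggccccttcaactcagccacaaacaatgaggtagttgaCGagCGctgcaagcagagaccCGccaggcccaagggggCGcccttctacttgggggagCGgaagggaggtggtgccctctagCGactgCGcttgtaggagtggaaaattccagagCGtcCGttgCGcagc
These stretches hold 20 CpG sites for Dazl, 17 for Fkbp6, 31 for Ddx4 and 10 for Dpep3. The E-box CACGTG, the core of the site bound by the MGA and MAX proteins of a repressor complex of germline genes, was found in the promoters of 4 of the 10 genes, Ddx4, Slc25a31, Stk31 and Fkbp6. It reads the same on both strands. The same letters stood in 6 of the 12 promoters, against 7.15% of all promoters and 11.0% of promoters with at least 11 CpG sites. The 2 windows of Stk31 overlap, as do the 2 of Fkbp6, so the same sites are counted in both windows. They are not particular to the 10 genes, since they stood in 31.25% of 48 promoters of the wider germline list described below. Those 48 promoters had a median of 16 CpG sites. The letters GCGGGA, searched on both strands as the core of an E2F site, stood in the promoters of 3 of the 10 genes, Ddx4, Tex19.1 and Slc25a31. These letters stood in 20.0% of all promoters, in 41.6% of promoters with at least 11 CpG sites and in 35.4% of the 48 promoters of the wider list. A match describes the sequence and is not evidence of binding.

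**Figure D1:**
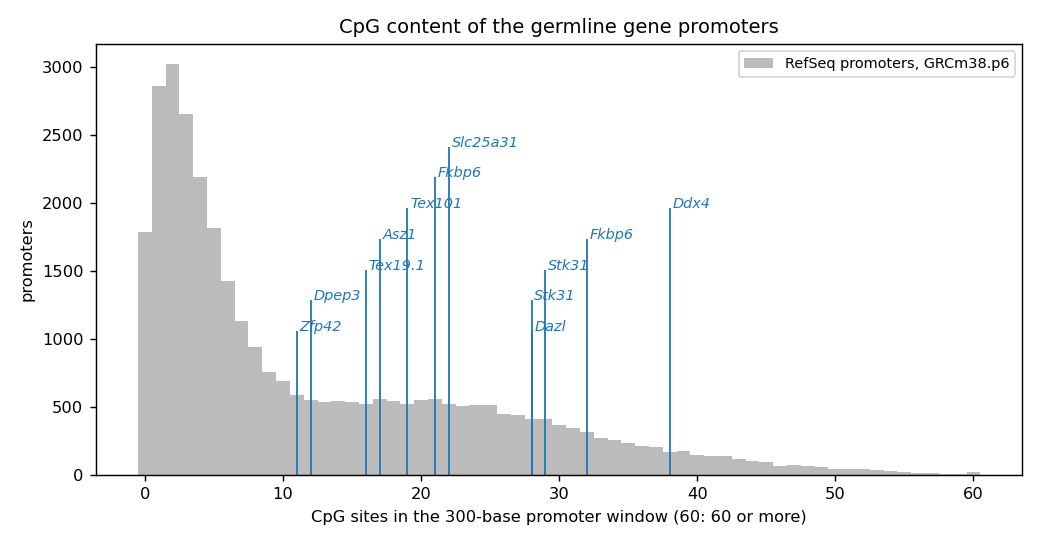
CpG sites per promoter window (x axis, count) for all RefSeq promoters of GRCm38.p6 (grey bars, number of promoters) and for the 12 promoters of the 10 germline genes (blue lines, whose heights only separate the names). The germline genes run from 11 sites in Zfp42 to 38 in Ddx4, all above the median of 7.

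Values are RPKM, which the authors' table gives per kilobase of the whole gene span, introns included, and groups are given as mean ± SD. A value can be compared between libraries for 1 gene, while a gene with long introns has a low RPKM. Steps between low values correspond to about 4850000 to 12890000 reads or read pairs per library. On that reckoning the least supported value among the 10 genes was Zfp42 in knockout replicate 2, with about 123 steps, and Tex19.1 in control replicate 1 had about 163. Uhrf1 itself had 1.87 and 1.48 RPKM in the knockout libraries, against 3.11 and 3.29 RPKM in the control libraries, so both knockout libraries were below both controls. Its log2 fold change was -0.65 (SE 0.10, limma adjusted p = 0.0031). The deleted part of the gene is not named, and RNA outside it would still be counted.

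The 10 genes did not move as a block in the Np95 knockout. Dazl, Tex19.1, Fkbp6 and Slc25a31 rose, Ddx4, Tex101, Dpep3, Zfp42 and Asz1 fell, and Stk31 was not called. Changes ran from 2.65-fold higher for Dazl to 1.60-fold lower for Dpep3. All 10 genes passed the filter of 1 RPKM in at least 2 of the 4 libraries. Asz1 passed through the control libraries only, so the filter fixed the direction of its fall. Calls are at a limma adjusted p below 0.05 over all 9099 tested genes, on the scale of log2(RPKM + 1), which understates the change of low genes. Over all tested genes 73.8% were called, 43.3% higher and 30.5% lower, so 9 calls among the 10 genes are read against a background in which most genes were called. The groups did not overlap for 9 of the 10 genes and for 89.9% of all tested genes. The median log2 fold change of the 10 genes was -0.12, against 0.14 over all tested genes. That background includes genes that passed the filter only by being higher in the knockout. All 10 genes reached 1 RPKM in at least 1 control library, and among the 7670 tested genes that did so 33.4% rose and 36.2% fell. Among the autosomal genes of that kind the median was -0.03, and the 10 genes are all autosomal. The CpG counts of the promoters overlapped between the genes that rose (16 in Tex19.1 to 32 in the CpG-richer promoter of Fkbp6) and those that fell (11 in Zfp42 to 38 in Ddx4).

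**Figure D2:**
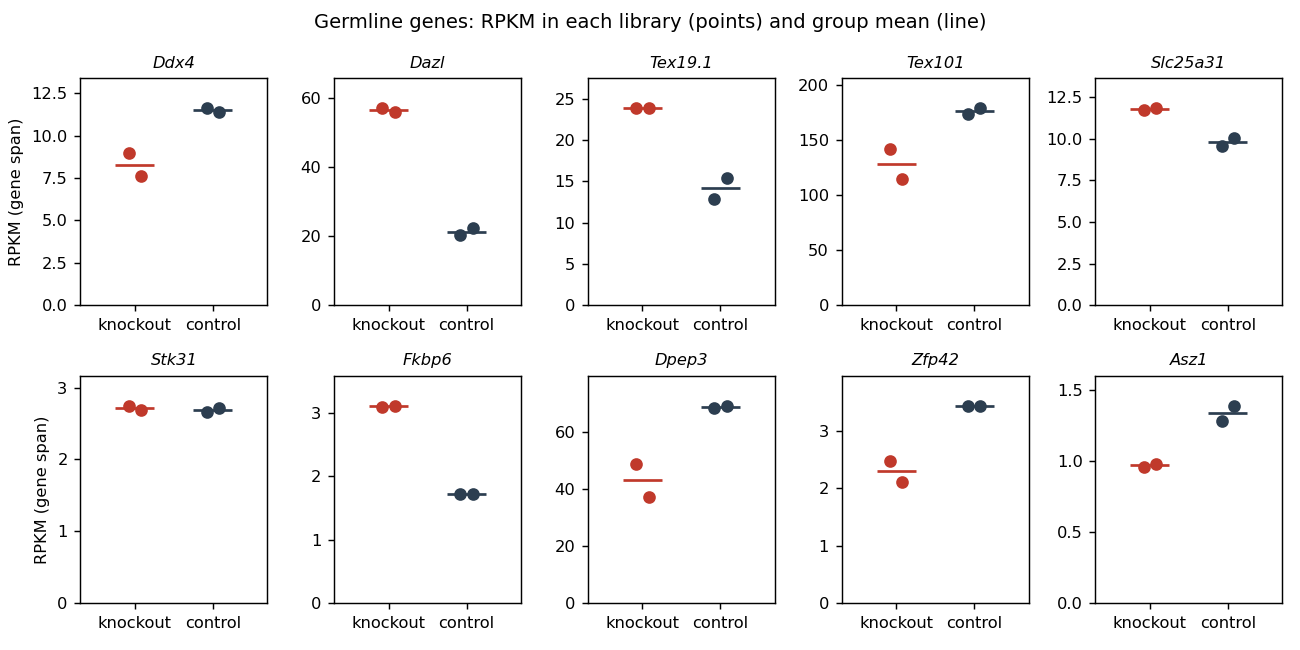
RPKM of each of the 10 germline genes (y axes start at 0 and differ between panels) in the 2 knockout (red) and 2 control (dark) libraries, with group means as lines. Dazl shows the widest gap relative to its level, 57.1 and 55.9 RPKM in the knockout libraries against 20.4 and 22.3 RPKM in the control libraries, and the groups overlap for Stk31.

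The direction of a small change depends on how the libraries are scaled to each other. The summed RPKM was 72805 and 70135 in the knockout libraries, against 94177 and 96578 in the control libraries. The median log2 fold change of all tested genes was 0.14 as deposited, 0.46 with libraries scaled to an equal sum, -0.05 with equal medians, 0.01 with quantile normalization and 0.02 with cyclic loess normalization, which removes a trend of fold change with level. Of all calls 58.7% were higher as deposited, against 77.3%, 46.3%, 50.9% and 51.5% under those scalings in the same order. The rises of Dazl, Tex19.1 and Fkbp6 kept their call under every one of these scalings. Each of the 5 falls, and the rise of Slc25a31, lost its call under at least 1 of them. Tex101 also turned to a called rise under quantile and cyclic loess normalization.

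**Figure D3:**
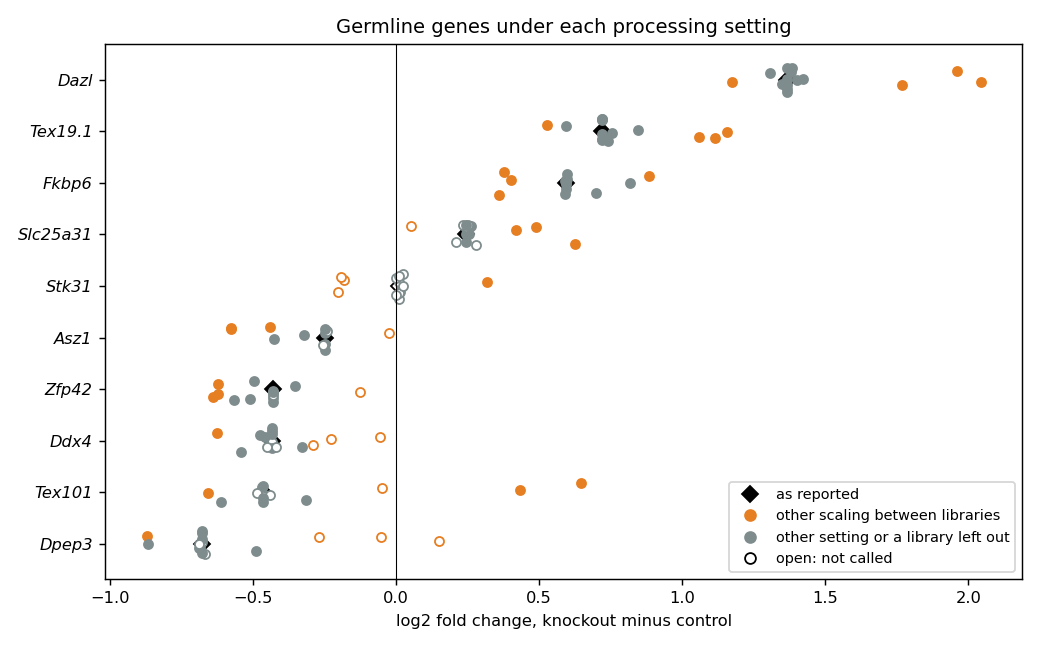
Log2 fold change, knockout minus control (x axis), of each of the 10 germline genes as reported (diamonds), under other scalings between libraries (orange) and under other settings or with a library left out (grey), with open symbols where the gene was not called. Dazl, Tex19.1 and Fkbp6 stay above 0 and called throughout, while Tex101 runs from -0.66 to 0.65.

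Dazl codes for an RNA-binding protein that germ cells need to translate their messages and to enter meiosis. It had 57.1 and 55.9 RPKM in the knockout libraries, against 20.4 and 22.3 RPKM in the control libraries. Both knockout libraries thus lay above both controls by far more than the spread within either group. The mean was 56.5 ± 0.849 RPKM in the knockout and 21.4 ± 1.29 RPKM in the control (SD, n = 2 each), 2.65-fold higher. The log2 fold change was 1.36 (SE 0.10, limma adjusted p = 0.0014) and 1.22 above the median of all genes. It lay at percentile 96.0 of the log2 fold changes of tested genes. Over 15 alternative settings it stayed between 1.17 and 2.04 and was called in each.

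Ddx4, the mouse Vasa homologue, is an RNA helicase of germ granules and of the piRNA pathway. Its levels were 8.96 and 7.60 RPKM in the knockout libraries, against 11.6 and 11.4 RPKM in the control libraries. Both knockout libraries were below the controls, knockout replicate 2 more so, and the mean was 1.39-fold lower (log2 fold change -0.43, SE 0.11, limma adjusted p = 0.015). With an equal RPKM sum the log2 fold change was -0.06 and not called (adjusted p = 0.62, with a range of 0.0056 to 0.62 over all alternatives), and with either control library left out the call also ended (adjusted p = 0.093 and 0.077). The ratio of Dazl to Ddx4 within a library is the same whatever single factor scales that library, though quantile and cyclic loess normalization can move it. As deposited it was 6.38 and 7.36 in the knockout libraries, against 1.76 and 1.96 in the control libraries, 3.70-fold higher, with no overlap. An exact permutation test of 2 against 2 libraries cannot go below p = 0.333, so this ratio is given without a test.

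Among genes of transposon control, Tex19.1 and Fkbp6 rose, and Asz1 was lower, in a direction that the filter fixed. Tex19.1, which restrains retrotransposons in the mouse germ line, had 23.8 and 23.9 RPKM in the knockout libraries, against 12.8 and 15.5 RPKM in the control libraries. The controls differed from each other more than the knockout libraries did, and the gap between groups was larger than either spread. The change was 1.69-fold (log2 fold change 0.72, SE 0.12, limma adjusted p = 0.0040), and it was called in all 15 alternatives, at 0.53 to 1.16. Tex19.2, the neighbouring paralog, had 28.3 and 24.5 RPKM in the knockout libraries, against 26.6 and 33.7 RPKM in the control libraries, and was not called (log2 fold change -0.18, SE 0.15, limma adjusted p = 0.33). The transcripts of the 2 paralogs are 77.8% identical over 1581 aligned bases, and 2.95% of the 50-base windows of Tex19.1 also occur in Tex19.2. Within a library the ratio of Tex19.1 to Tex19.2 was 0.844 and 0.976 in the knockout libraries, against 0.482 and 0.459 in the control libraries.

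Fkbp6, a co-chaperone that works with heat shock proteins in piRNA loading and is also found on meiotic chromosomes, had 3.10 and 3.11 RPKM in the knockout libraries, against 1.71 and 1.72 RPKM in the control libraries. Replicates of each group almost coincided, and the groups lay far apart relative to that spread. The mean was 1.81-fold higher (log2 fold change 0.59, SE 0.07, limma adjusted p = 0.0017). Its call held in all 14 alternatives that tested it, at 0.36 to 0.88, and it was not tested under the filter at 5 RPKM. Asz1, also called GASZ, a scaffold of the granules where piRNAs are made, had 0.960 and 0.978 RPKM in the knockout libraries, against 1.28 and 1.39 RPKM in the control libraries. Both knockout libraries were lower (log2 fold change -0.25, SE 0.07, limma adjusted p = 0.026). The mean was 1.38-fold lower. Since Asz1 passed the filter only through the controls, the filter fixed its direction and its call carries no weight. With an equal RPKM sum the change was -0.02 (adjusted p = 0.78), and with either knockout library left out it was not called (adjusted p = 0.050 each, with a range of 0.0020 to 0.78 over all alternatives). Relative to Ddx4, Asz1 stood at 0.107 and 0.129 in the knockout libraries and at 0.110 and 0.122 in the control libraries, values that overlap.

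Stk31, a kinase-like protein with a Tudor domain that is found in germ cells, had 2.75 and 2.69 RPKM in the knockout libraries, against 2.66 and 2.72 RPKM in the control libraries. The 2 groups overlapped. The log2 fold change was 0.01, with a 95% confidence interval of -0.17 to 0.20 (limma adjusted p = 0.88), which leaves room for a small change in either direction. Under an equal RPKM sum it was called higher, at 0.32 (adjusted p = 0.014, with a range of 0.014 to 0.996 over all alternatives). An annotated pseudogene, Gm17060, lies inside the Stk31 span on the opposite strand, and reads of the 2 cannot be told apart in libraries that do not keep strand.

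Tex101 and Dpep3 code for proteins anchored to the germ cell surface that form a complex with each other, and both fell as deposited. Tex101 had 142 and 115 RPKM in the knockout libraries, against 174 and 179 RPKM in the control libraries. Dpep3, a membrane dipeptidase, had 48.8 and 37.4 RPKM in the knockout libraries, against 68.4 and 69.3 RPKM in the control libraries. For both genes the knockout libraries lay below the controls, and knockout replicate 2 lay below knockout replicate 1. The mean of Tex101 was 1.37-fold lower (log2 fold change -0.46, SE 0.15, limma adjusted p = 0.042) and that of Dpep3 was 1.60-fold lower (log2 fold change -0.68, SE 0.16, limma adjusted p = 0.013). Of the 10 genes these 2 had the widest ranges over the alternatives. Under quantile and cyclic loess normalization Tex101 was called higher, at 0.43 and 0.65 (adjusted p = 0.0073 and 0.0040, with a range of 0.0025 to 0.74 over all alternatives). Dpep3 was at -0.05 and 0.15 under the same settings, and not called (adjusted p = 0.75 and 0.26, with a range of 0.0016 to 0.75). With either control library left out, the falls of Tex101 (adjusted p = 0.20 and 0.24) and Dpep3 (0.069 and 0.073) were not called. Their ratio within a library changed less, at 2.91 and 3.08 for Tex101 over Dpep3 in the knockout libraries, against 2.54 and 2.59 in the control libraries. In the GENCODE annotation Dpep3 is overlapped over its whole span by the antisense long noncoding RNA gene Gm45752, whose reads would be counted with it.

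Slc25a31, the ADP/ATP carrier of testis mitochondria, had 11.7 and 11.8 RPKM in the knockout libraries, against 9.53 and 10.1 RPKM in the control libraries. The knockout libraries were higher than both controls by a small margin, 1.20-fold in the means (log2 fold change 0.24, SE 0.08, limma adjusted p = 0.048). This rise was 0.10 above the median of all tested genes, 0.14. The median differs with level, since genes tested at 5 RPKM or more, Slc25a31 among them, had a median of -0.22. With cyclic loess normalization the rise was 0.49 (limma adjusted p = 0.0056). With equal medians it was 0.05 and not called (adjusted p = 0.61), and leaving out any 1 library ended the call (adjusted p = 0.051 to 0.30, with a range of 0.0017 to 0.61 over all alternatives). Zfp42, also called Rex1, a zinc finger protein known from pluripotent cells and expressed in spermatocytes, had 2.48 and 2.12 RPKM in the knockout libraries, against 3.44 and 3.44 RPKM in the control libraries. Both knockout libraries were lower and the controls coincided. The mean was 1.50-fold lower (log2 fold change -0.43, SE 0.09, limma adjusted p = 0.0079). Scaling to an equal RPKM sum ended the call (-0.12, adjusted p = 0.24), as did leaving out either control library (adjusted p = 0.057 and 0.055, with a range of 0.0031 to 0.24 over all alternatives). Of the 50-base windows of the Zfp42 transcript 9.17% also occur in its annotated pseudogene copy Zfp42-ps1, the highest such share among the 10 genes.

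**Figure D4:**
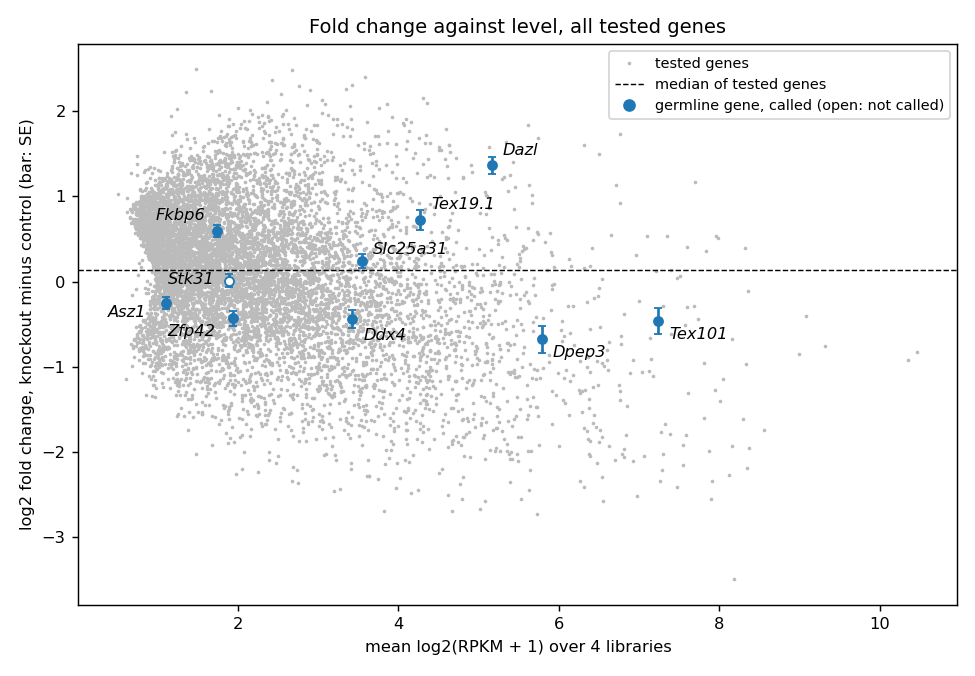
Log2 fold change, knockout minus control (y axis, bars are SE), against mean log2(RPKM + 1) over the 4 libraries (x axis) for all tested genes (grey) and the 10 germline genes (blue, open where not called). Dazl lies highest of the 10, at 1.36, while Tex101 and Dpep3 lie among abundant genes. The dashed line is the median of all tested genes, 0.14, while genes tested at 5 RPKM or more had a median of -0.22.

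To compare levels between genes, RPKM was rescaled from gene span to exon length, using RefSeq spans and GENCODE exons. This holds only if the reads are exonic and the authors used a similar span, and exon length differs between isoforms. On this scale Tex101 had the highest level in both groups, with 490 in the knockout and 674 in the control. In the knockout Dazl came next with 264, followed by Dpep3 with 150, Ddx4 with 149, Fkbp6 with 106, Slc25a31 with 95.3, Stk31 with 62.2, Asz1 with 32.4, Tex19.1 with 29.7 and Zfp42 with 14.6. In the control the order was Dpep3 with 239, Ddx4 with 207, Dazl with 99.6, Slc25a31 with 79.3, Stk31 with 61.5, Fkbp6 with 58.9, Asz1 with 44.7, Zfp42 with 21.9 and Tex19.1 with 17.6. Dpep3 and Ddx4 overlapped between their replicates in the knockout, so their order there is not set. Dazl moved past Dpep3 and Ddx4, Fkbp6 moved past Slc25a31, and Tex19.1 moved past Zfp42. Fkbp6 and Stk31 lay close in the control, and the Fkbp6 exon length was 1753 bases, against 1447 in its longest coding transcript. Their order in the control is therefore not set.

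The 2 knockout libraries differed from each other for some of the 10 genes. Knockout replicate 1 over replicate 2 was 1.31 for Dpep3, 1.23 for Tex101, 1.18 for Ddx4 and 1.17 for Zfp42. For the other 6 genes that ratio lay between 0.982 and 1.02. The same ratio was 1.33 for the summed RPKM of 20 pachytene markers and 1.55 for 24 spermatid markers, against 1.06 for 16 early prophase markers and 0.801 for 24 Sertoli cell markers. Macrophage markers had 1.27 and Leydig cell markers 1.19, though most of those tested rose. The other marker lists had 1.03 (spermatogonial), 0.953 (myoid), 0.678 (dissociation and stress) and 0.466 (endothelial and blood). The 4 genes with ratios of 1.17 or more all fell in the knockout, while Asz1, which also fell, had 0.982. How often genes with such ratios fell over all tested genes was not counted.

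Markers of other cell types and stages moved with genotype, and in bulk samples fewer cells of a type and less RNA per cell cannot be told apart. The marker lists were drawn up from general knowledge, and sums are over all markers of a list found in the table. Stra8 is on both the spermatogonial and the early prophase list. A gene below 1 RPKM in both control libraries could pass the filter only by being higher in the knockout, so its rise carries no weight, and the number of such genes is given beside each count. Over all tested genes 43.3% rose and 30.5% fell, and among the 7670 that reached 1 RPKM in at least 1 control library 33.4% rose and 36.2% fell. Of 18 pachytene markers tested 17 fell and 1 rose, 1 of the 18 having passed through the control libraries only, and the summed RPKM of the list was 922 and 694 in the knockout libraries, against 2312 and 2288 in the control libraries. Of 10 spermatid markers tested 7 fell and 0 rose, with sums of 126 and 81.3 in the knockout libraries, against 377 and 367 in the control libraries. Among 15 early prophase markers tested 11 rose and 1 fell, and 6 of 10 rose when 5 that passed solely through the knockout libraries are set aside, with sums of 91.6 and 86.8 in the knockout libraries, against 62.3 and 62.5 in the control libraries. Of 7 spermatogonial markers tested 6 rose and 1 fell, and 4 of 5 rose when 2 that passed solely through the knockout libraries are set aside. The sums overlapped, at 53.4 and 52.1 in the knockout libraries against 49.3 and 54.1 in the control libraries. The one that fell, Id4, is named after its values were seen, and with 24.6 and 21.6 RPKM in the knockout libraries, against 39.0 and 41.7 RPKM in the control libraries, it made up most of the spermatogonial sum in the controls. All 20 Sertoli cell markers tested rose, 3 of them having passed through the knockout libraries only, with sums of 511 and 638 in the knockout libraries, against 170 and 198 in the control libraries. Of 6 Leydig cell markers tested 5 rose, 1 of these having passed through the knockout libraries only, with sums of 61.0 and 51.0 in the knockout libraries, against 19.3 and 19.3 in the control libraries. All 5 macrophage markers tested rose, 2 of them having passed that way, with sums of 17.2 and 13.6 in the knockout libraries, against 5.80 and 6.98 in the control libraries. All 12 dissociation and stress genes tested rose, 4 of them having passed that way, with sums of 90.0 and 133 in the knockout libraries, against 24.0 and 29.5 in the control libraries. The 1 myoid cell marker tested rose, and the 4 endothelial and blood markers tested, all haemoglobin genes, were not called (limma adjusted p = 0.68 to 0.79). Fshr of Sertoli cells and Lhcgr of Leydig cells, the hormone receptors that define those cells, were low but not at 0, at 0.0504 and 0.0663 RPKM for Fshr in the knockout libraries, against 0.0135 and 0.0161 RPKM in the control libraries. Lhcgr had 0.148 and 0.0688 RPKM in the knockout libraries, against 0.0170 and 0.0214 RPKM in the control libraries. The part of these shifts in the changes of the 10 genes was not tested.

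**Figure D5:**
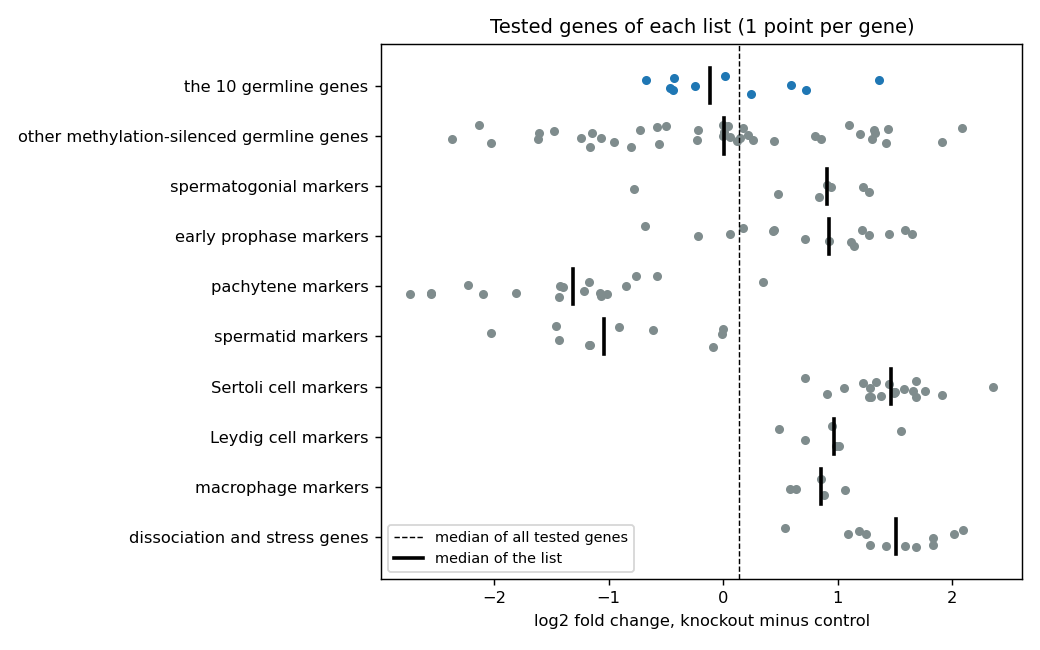
Log2 fold change, knockout minus control (x axis), of each tested gene (points) of the 10 germline genes, the wider germline list and the marker lists, with list medians as black bars and the median of all tested genes, 0.14, as a dashed line. The 10 genes spread around a median of -0.12, between the lower pachytene and spermatid markers and the higher early prophase and Sertoli cell markers.

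A wider list of 52 other germline genes whose silence in somatic cells is linked to promoter methylation also moved both ways. It shares Dnajb3 with the spermatid markers, Piwil1 with the pachytene markers, and Sycp1, Sycp2, Sycp3 and Hormad1 with the early prophase markers. Of the 40 that passed the filter 13 rose, 16 fell and 11 were not called, against 43.3% higher and 30.5% lower over all tested genes. Tktl1 and Tex16, 2 of the 13 that rose, passed through the knockout libraries only. Their median log2 fold change was 0.01, against 0.14 over all tested genes. All 6 X-linked genes tested rose, Tktl1 and Tex16 among them, with a median of 1.31. This is near the background of that chromosome, since 94.8% of all X-linked genes tested were called higher, with a median of 1.06, and 91.2% of the 136 that reached 1 RPKM in at least 1 control library. Of the 34 autosomal genes tested 7 rose and 16 fell, with a median of -0.23. Over all autosomal genes tested 41.8% were higher and 31.2% lower, with a median of 0.11. All 34 reached 1 RPKM in at least 1 control library. Over all autosomal genes that did so 32.4% were higher and 36.7% lower, with a median of -0.03. The 10 genes described above are all autosomal. The 4 genes of the list with the smallest p all rose. Tex15, needed for meiotic recombination and transposon silencing, had 28.9 and 28.8 RPKM in the knockout libraries, against 5.88 and 6.17 RPKM in the control libraries (log2 fold change 2.09, SE 0.09, limma adjusted p = 0.0014). Taf7l, an X-linked germ cell relative of a transcription factor subunit, was 4.49-fold higher, Tktl1, an X-linked transketolase-like gene, 5.31-fold and Pramel1 3.06-fold. Among the genes that fell, Prss21, a serine protease of sperm that was chosen after its values were seen, had 2.19 and 1.20 RPKM in the knockout libraries, against 10.6 and 10.7 RPKM in the control libraries.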

How the data were processed

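Poly(A) RNA was sequenced in 2 Np95 knockout and 2 control libraries, as 50-bp pairs, per the labels' protocols, which name NEBNext Ultra II RNA, a kit that does not mark strand. The authors deposited RPKM values, 1 column per library, in 24444 rows named by symbol. Bowtie2 and the build mm9 are named in the submitters' processing notes. For the counting program and the annotation, the sources used here give no name. Low RPKM values multiplied by RefSeq gene span lay within 0.05 of a whole step for 46.2% to 48.2% of values, against 10.8% to 11.7% by exon length, where chance gives 10%. So gene span was the length used for RPKM, and the steps gave the depths. Spans, exons and promoters came from GRCm38 tables, matched by symbol.

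From the table, 27 rows with a date for a symbol and 29 repeats (the row with the highest mean was kept) were left out. The 9099 genes that reached 1 RPKM in 2 or more libraries were tested on log2(RPKM + 1). The two-sided test was limma's (version 3.58.1 under R 4.3.3), with a trend of variance on level and p-values adjusted by Benjamini-Hochberg over all of them, called below 0.05. The script was checked on simulated data. The 10 genes and the lists were chosen with earlier results of these data known. The rule names the 10 genes, Uhrf1, Tex19.2, up to 4 called genes with the smallest p of each pathway list, and the most abundant 2 genes of a marker list where any is named. Fshr and Lhcgr are named as defining markers, and Pcgf6, Hdac1 and Ring1 as the repressors that fell.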

Additional observations from a re-analysis of the deposited data

How the results depend on the processing

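Over 15 alternative settings, Dazl, Tex19.1 and Fkbp6 kept their direction and call wherever they were tested. The 10 genes had 5 called lower as reported, against 2 without a filter, 3 at 5 RPKM (6 genes tested), 0 by limma with an equal RPKM sum (0 also at an unadjusted p below 0.05), 2 with quantile normalization and 2 with cyclic loess normalization. Without a filter Ddx4, Tex101 and Dpep3 lost their calls (adjusted p = 0.052, 0.14 and 0.066). Leaving out 1 library gave 0 to 4 called lower, 0 by limma with control replicate 1 or 2 left out (9 genes tested each, 2 and 3 of them lower at an unadjusted p below 0.05) and 4 with knockout replicate 1 or 2 left out, where the lone library is assumed to vary like the others. Tex101 turned to 0.43 with quantile normalization and 0.65 with cyclic loess normalization, and Dpep3 to 0.15 with cyclic loess normalization. Stk31, never called lower, turned to -0.18 with equal medians, -0.19 with quantile normalization and -0.20 with cyclic loess normalization, while leaving out 1 library gave -8.48e-04 (without control replicate 1) to 0.026 (without control replicate 2). The cause of these changes was not tested.

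Of all genes 6790 were higher without a filter, against 3943 as reported, and 1080 higher and 1629 lower at 5 RPKM, where fewer genes were tested. With an equal RPKM sum 1663 were lower, against 2776. With 1 library left out 2321 to 3115 were higher and 1756 to 2871 lower. Of the wider germline list 8 were higher at 5 RPKM and 23 with an equal RPKM sum, against 13. The 2 pairs cannot show whether replicate numbers pair the libraries (same-numbered deviations correlated at 0.11 across genes). With a replicate block 3 of the 10 genes were higher and 4 lower, Slc25a31 and Tex101 losing their calls (adjusted p = 0.075 and 0.089). Depth limits Zfp42 and Tex19.1 most.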

Other observations

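Genes of the DNA methylation machinery moved in both directions in the knockout. Of 20 listed genes 11 passed the filter, of which 6 rose, 2 fell and 3 were not called. Uhrf1, the knocked-out gene, is on this list and among the 2 that fell, so its fall is no result about the others. Cdca7, Mbd4 and Uhrf2, 3 of the 6 that rose, were below 1 RPKM in both control libraries and passed through the knockout libraries only, so the filter fixed their direction. Of the other 8 genes 3 rose and 2 fell, again with Uhrf1 among those that fell. Over all genes that reached 1 RPKM in at least 1 control library 33.4% were higher and 36.2% lower. The 4 with the smallest p were Hells, a chromatin remodeller that aids methylation, Cdca7, its partner, Mbd4, a DNA glycosylase, and Dnmt1. Hells had 6.21 and 6.76 RPKM in the knockout libraries, against 1.72 and 1.88 RPKM in the control libraries. Dnmt1 had 3.30 and 3.64 RPKM in the knockout libraries, against 2.01 and 2.08 RPKM in the control libraries (log2 fold change 0.55, SE 0.08, limma adjusted p = 0.0027).

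Repressors of germline genes known from somatic and embryonic stem cells also moved both ways. Of 20 tested genes 11 rose, 3 fell and 6 were not called, against 43.3% higher and 30.5% lower over all tested genes. Kdm5c, Zbtb33, E2f6 and Rybp, 4 of the 11 that rose, passed through the knockout libraries only. Of the other 16 genes 7 rose and 3 fell. Over all genes that reached 1 RPKM in at least 1 control library 33.4% rose and 36.2% fell. Zbtb33, which codes for the methyl-CpG-binding protein Kaiso, was 5.27-fold higher and the histone demethylase gene Kdm5c 5.65-fold, and both are X-linked, a class of which 94.8% of tested genes were called higher. Mga, which binds E-boxes together with Max, had 2.53 and 2.73 RPKM in the knockout libraries, against 1.08 and 0.984 RPKM in the control libraries (log2 fold change 0.84, SE 0.08, limma adjusted p = 0.0014). Cbx3, a heterochromatin protein, was 1.85-fold higher. The 3 that fell were Pcgf6 (1.86-fold lower), Hdac1 (1.42-fold lower) and Ring1 (1.34-fold lower). All 20 Sertoli cell markers tested were higher in the same libraries, and their part in these values was not tested.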
